A study of Caenorhabditis elegans with 15 samples.

Results

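The genes of oxidative phosphorylation were examined in whole Caenorhabditis elegans fed sucrose, stearic acid, both, or both with resveratrol. The members were the genes whose KEGG pathway annotation in the deposited table lists oxidative phosphorylation (ko00190) and not the carbon metabolism overview (ko01200). This rule gave 67 of the 16196 genes in the table, all 67 with a gene name. By their KEGG descriptions, 23 belonged to complex I, 7 to complex III, 6 to complex IV, 2 to complex IV assembly, 11 to complex V and 17 to the V-type proton pump, and 1 was a phosphatase (lhpp-1). The rule set aside the 4 genes of complex II, which the annotation also lists under carbon metabolism. Subunits encoded by mitochondrial DNA were not analysed here.

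Oxidative phosphorylation is the route by which mitochondria make most of a cell's ATP. Complex I takes electrons from NADH and complex II from succinate, both pass them to ubiquinone, and complexes III and IV carry them on through cytochrome c to oxygen. Complexes I, III and IV pump protons across the inner mitochondrial membrane, and complex V, the ATP synthase, uses their return to make ATP. The V-type proton pump, or V-ATPase, runs the other way: it spends ATP to acidify lysosomes, vesicles and the gut lumen, and KEGG lists it on the same map.

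All worms were wild type (N2) at the L4 larval stage, and RNA came from the whole body. There were 5 groups of 3 libraries: suc (400 mM sucrose), ste (stearic acid), suc-ste (both), suc-ste-res (both with resveratrol) and control (none of these). The dose of stearic acid and of resveratrol has the number 500, with mg/ml as the unit in the sample labels and μg/mL in the study's methods. The labels do not say whether replicates were separate cultures, so p-values measure the spread between these samples, which may be technical.

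The libraries held 19433436 to 21400063 counts each, and no library pair within a group agreed within sampling noise. Markers of muscle, intestine, hypodermis, neurons and germline were all detected, and whole body is the labelled tissue. The summed level of 12 germline markers was 4876 CPM (counts scaled to a common library total) in control replicate 3 and 2062 to 3065 CPM in the other 14 libraries. Per-library values below are in this unit, from the deposited counts scaled by trimmed means (TMM). Calls are those of edgeR's quasi-likelihood test with a Benjamini-Hochberg adjusted p of at most 0.05 over all genes tested, and the fold changes are log2.

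The members were among the most abundant transcripts. Levels of different genes are compared here in FPKM, which divides by transcript length. The median member had 313 FPKM in the control group, against 11.3 FPKM for all genes, and 55 of 67 members were in the top 10% of genes. Complex IV had the highest median control level at 1162 FPKM, followed by complex V at 643 FPKM. The V-ATPase, complex I and complex III lay close together at 305, 304 and 301 FPKM. The FPKM of short genes was high for their counts: T27E9.2, a gene of 228 bp, had 480 FPKM in the control group with 2.13 to 4.21 CPM, so the order of levels is uncertain for such genes. At the low end, T26E3.7, annotated as an alpha subunit of complex V, had 0.242 to 0.778 CPM over all libraries and was left out of some tests by the filter on low counts.

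The members took a larger share of all counts in every group that received sucrose. The share was 2.07 ± 0.0102% in suc, 1.65 ± 0.0464% in ste, 2.13 ± 0.0443% in suc-ste and 2.07 ± 0.0536% in suc-ste-res, against 1.59 ± 0.0441% in control (mean ± SD, n = 3 each). All 9 libraries with sucrose lay above all 6 without it, while ste and control overlapped. The mean log2 level over the members relative to the control mean was 0.339 to 0.384 in suc, −0.00888 to 0.14 in ste, 0.381 to 0.439 in suc-ste and 0.282 to 0.418 in suc-ste-res, against −0.0428 to 0.0276 in the control libraries. In bulk samples, more RNA per cell and more cells that express these genes cannot be told apart.

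**Figure D1:**
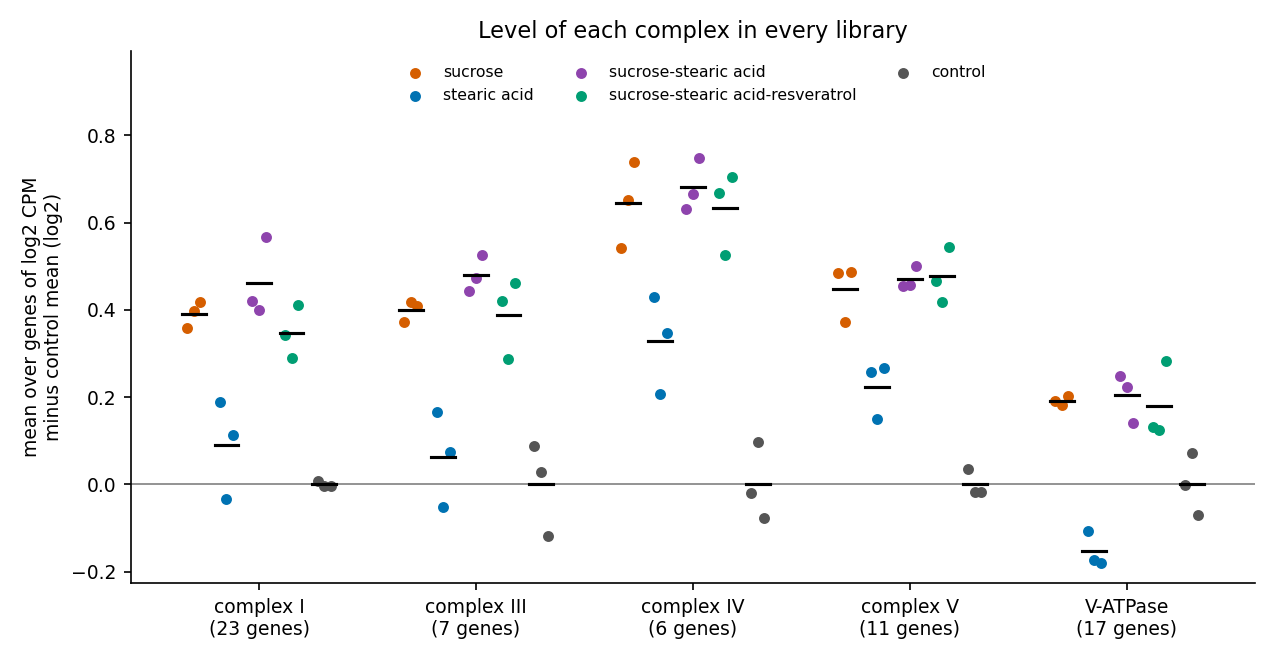
Mean log2 CPM of the members of each complex minus its mean in the control group (y axis, log2 units), by complex (x axis), with a coloured point for every library of each group and a black bar for the group mean. Every suc, suc-ste and suc-ste-res library lies above every control library for complexes I, III, IV and V and for the V-ATPase, while the ste libraries lie above control for complexes IV and V and below it for the V-ATPase.

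Sucrose alone raised most members by a modest amount. Of 66 members tested in suc against control, 41 were higher and 1 was lower, while 9.63% of all tested genes were higher and 8.78% lower. Over the members the median log2 fold change was 0.43, against −0.02 over all genes. None of the changes reached 2-fold, a size that 9.18% of all genes passed together with the adjusted p. In complex I 16 of 23 members rose (median of the tested members 0.44), in complex III 4 of 7 (0.47), in complex IV 6 of 6 (0.63), in complex V 7 of 10 (0.56) and in the V-ATPase 7 of 17 (0.26). The count of 42 called members was 24 without suc replicate 2 and 26 without suc replicate 3. Markers of adult and yolk production moved with this rise: their summed level was 10180 to 11074 CPM in suc, against 4218 to 6041 CPM in control, and 3 of 5 (the yolk protein genes vit-2, vit-5 and vit-6) were higher. In suc-ste, where the members rose by a like amount, the sum was 5252 to 6571 CPM and 1 of 5 was higher. In ste the sum was 6807 to 8919 CPM, with 2 of 5 higher and 2 lower. Of 7 intestine markers 1 was higher and 2 were lower in suc. Their summed level was 3988 to 4263 CPM in suc, against 5462 to 6941 CPM in control. The part of these markers in the members' values was not tested.

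The 5 largest rises under sucrose were those of gas-1, cox-5A, ucr-2.2, asb-2 and cox-6C, and vha-5 had the largest in the V-ATPase. gas-1 (X:15586786-15590397, WBcel235), a core iron-sulfur subunit of complex I, had 289, 265 and 292 CPM in the suc libraries, against 177, 168 and 143 CPM in control. The lowest suc library was thus well above the highest control library, and the log2 fold change was 0.80 (SE 0.11, adjusted p = 0.00115, edgeR quasi-likelihood test). cox-5A (III:12905491-12906619), a nuclear-encoded subunit of cytochrome c oxidase, had 508, 524 and 548 CPM in suc, against 300, 313 and 311 CPM in control. Its 3 suc values were close together and far from control, with a log2 fold change of 0.78 (SE 0.09, adjusted p = 0.000418, edgeR). asb-2 (X:4469766-4471476), which encodes the b subunit in the peripheral stalk of ATP synthase, had 606, 571 and 645 CPM in suc, against 399, 372 and 320 CPM in control. The groups did not overlap, and the log2 fold change was 0.75 (SE 0.11, adjusted p = 0.00146, edgeR).

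cox-6C (IV:126731-127640), another nuclear-encoded subunit of complex IV, had 182 to 220 CPM in suc, against 109 to 146 CPM in control, with no overlap and a log2 fold change of 0.74 (SE 0.13, adjusted p = 0.0044, edgeR). vha-5 (IV:8303968-8307369), which encodes an a subunit of the V-ATPase membrane sector, had 325, 338 and 401 CPM in suc, against 225, 244 and 190 CPM in control. No library of one group reached the range of the other, and the log2 fold change was 0.71 (SE 0.13, adjusted p = 0.00419, edgeR). ucr-2.2 (X:15173904-15178145), a core subunit of complex III, had 186, 181 and 187 CPM in suc, against 115, 113 and 97.1 CPM in control, a log2 fold change of 0.78 (SE 0.10, adjusted p = 0.00097, edgeR). The value of ucr-2.2 is uncertain, because its span overlaps the collagen gene col-41 by 1450 bp, and col-41 itself had a log2 fold change of 1.87 in suc against control. Of the members, 14 overlap the span of another gene, and whether the counting used strand is not given in the sources used here.

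The leading member of each enzyme, the one with the highest mean FPKM, did not always follow. FPKM ran high for short genes, and the leading members of the 5 enzymes are all short, so their lead is uncertain. ndua-2 spans 450 bp, vha-1 510 bp, cox-6B 553 bp, Y82E9BR.3 578 bp and T02H6.11 644 bp. Y82E9BR.3, the c subunit that forms the rotating ring of ATP synthase and the member with the highest mean FPKM, had 497, 562 and 549 CPM in suc, against 383, 383 and 363 CPM in control. That is a log2 fold change of 0.52 (adjusted p = 0.00425, edgeR), with no overlap. Among the leading members of complexes III and IV, T02H6.11 (subunit 7 of complex III) rose by 0.55 and cox-6B by 0.59 on the log2 scale. The leading members of the V-ATPase and of complex I did not pass the test: vha-1, a proteolipid subunit of the membrane ring, had a log2 fold change of 0.23 (adjusted p = 0.114, edgeR) and ndua-2 one of 0.36 (adjusted p = 0.124, edgeR). cox-10 and cox-15, which act in making the heme a of complex IV, differed. cox-10 had 21.2, 20.5 and 23.4 CPM in suc, against 15.7, 15.9 and 11.9 CPM in control, a log2 fold change of 0.59 (adjusted p = 0.0306, edgeR), while cox-15 had a log2 fold change of 0.03 (adjusted p = 0.882, edgeR). The only lower member was lhpp-1, a phosphatase that is no subunit of the chain, with 4.18, 4.4 and 4.16 CPM in suc, against 6.3, 6.91 and 6.33 CPM in control. Its log2 fold change was −0.60 (adjusted p = 0.0418, edgeR), and it was not called without the filter on low counts, nor in 5 of the 6 fits that left out a library. The call of cox-10 was lost in the same number of these fits.

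**Figure D2:**
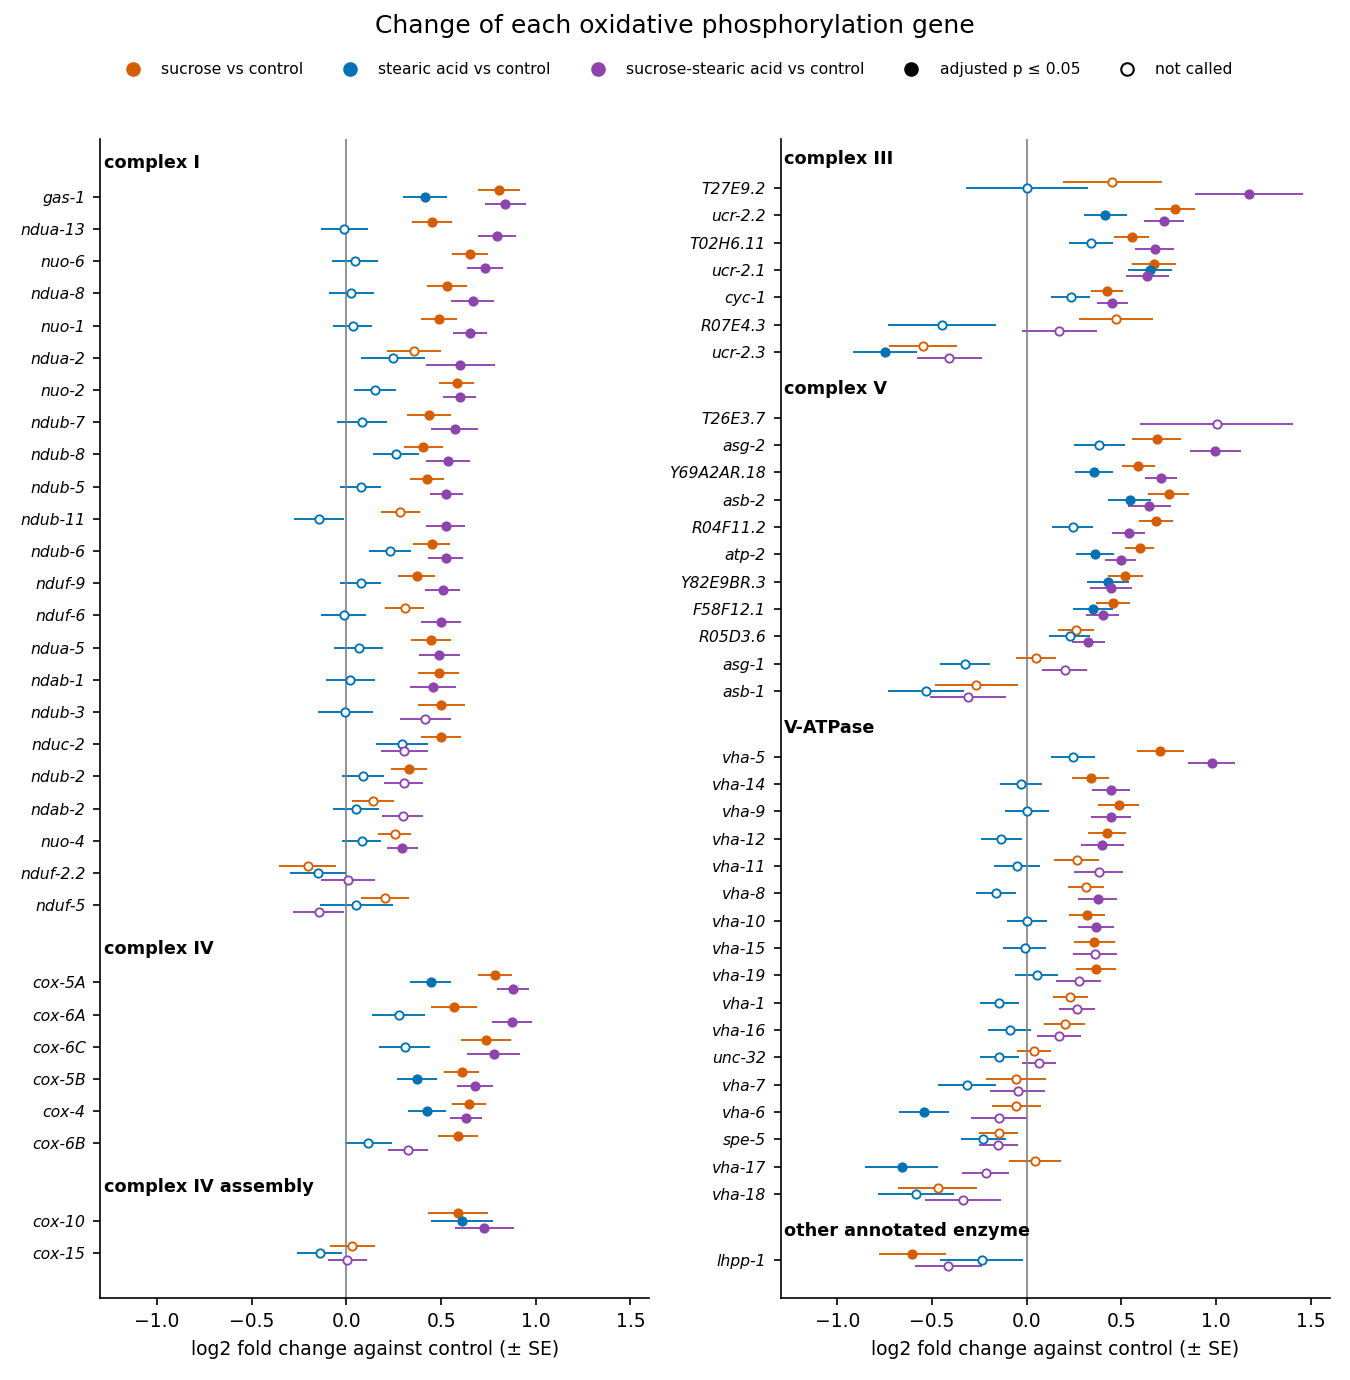
Log2 fold change of every tested member (rows, grouped by complex) in suc, ste and suc-ste against control (x axis, log2 units), with bars of 1 standard error on each side and filled points for an adjusted p of at most 0.05. In suc and suc-ste most rows lie to the right of 0 (medians 0.43 and 0.45), in ste they scatter around it (median 0.05).

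Stearic acid alone changed fewer members, and in both directions. In ste against control 12 of 66 members were higher and 3 lower (18.2% and 4.55%), while 11.6% of all tested genes were higher and 11.0% lower, so the share of higher members was not far from that of all genes. Over the members it had a median of 0.05, against −0.03 over all genes, on the log2 scale, and none of the called changes reached 2-fold. The higher members were 5 of 10 in complex V (median of the tested members 0.35), 3 of 6 in complex IV (0.34), 2 of 7 in complex III (0.23), 1 of 23 in complex I (0.06) and cox-10. In the V-ATPase none of 17 rose and 2 fell (median −0.13). These counts rested on single ste libraries: 8 members were called without ste replicate 1, 7 without ste replicate 2 and 2 without ste replicate 3. Of the genes named next, ucr-2.1 and asb-2 stayed called in each of these fits. Tissue markers moved in the same comparison. Of 10 neuron markers 6 were higher in ste, with a summed level of 1783 to 1984 CPM in ste, against 849 to 1400 CPM in control, while 5 of 12 germline, 4 of 10 hypodermis and 4 of 13 moult markers were lower. Of 5 adult and yolk markers 2 were higher and 2 lower in ste, with a summed level of 6807 to 8919 CPM, against 4218 to 6041 CPM in control. The part of all these markers in the members' values was not tested.

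The largest rise under stearic acid was that of ucr-2.1 (X:12018429-12021212), a core subunit of complex III, with 371, 407 and 410 CPM in ste, against 275, 259 and 219 CPM in control. The groups were far apart, and the log2 fold change was 0.65 (SE 0.12, adjusted p = 0.00221, edgeR). asb-2 had 508, 536 and 556 CPM in ste, against 399, 372 and 320 CPM in control, a log2 fold change of 0.54 (SE 0.11, adjusted p = 0.00572, edgeR). cox-5A had 427, 387 and 450 CPM in ste, against 300, 313 and 311 CPM in control, a log2 fold change of 0.44 (SE 0.11, adjusted p = 0.0132, edgeR). For each of these, every ste library was above every control library. cox-10 (0.61), Y82E9BR.3 (0.43) and gas-1 (0.41) also rose on the log2 scale, as did atp-2, the catalytic beta subunit of ATP synthase (0.36), cox-4 (0.43), cox-5B (0.37), ucr-2.2 (0.42), F58F12.1 (0.35) and Y69A2AR.18 (0.36), the delta and gamma subunits of ATP synthase.

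The 3 lower members were ucr-2.3, vha-17 and vha-6. vha-6 (II:11435210-11438452), the V-ATPase a subunit known from the apical membrane of the intestine, had 271, 296 and 292 CPM in ste, against 458, 457 and 331 CPM in control. The lowest control library was still above all ste libraries, and the log2 fold change was −0.54 (SE 0.13, adjusted p = 0.0129, edgeR). vha-17, the small e subunit of the V-ATPase, had 19.8, 13.8 and 11.8 CPM in ste, against 22.6, 24.6 and 24.3 CPM in control, a log2 fold change of −0.66 (SE 0.19, adjusted p = 0.0295, edgeR). On log2(FPKM + 1) with limma, vha-17 was not called, with a log2 fold change of −0.18 (adjusted p = 0.377). The third, ucr-2.3, is described with its paralogs.

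With both nutrients the members stood about where sucrose alone put them. In suc-ste against control 42 of 67 members were higher and none lower, while 11.0% of all tested genes were higher and 8.89% lower. The members had a median log2 fold change of 0.45. In complex I 17 of 23 rose, in complex III 5 of 7, in complex IV 5 of 6, in complex V 8 of 11 and in the V-ATPase 6 of 17. T27E9.2 was the only member both called and changed at least 2-fold, as 9.57% of all genes were. The scarce T26E3.7 had a log2 fold change of 1.00 in suc-ste against control but was not called (adjusted p = 0.124, edgeR). T27E9.2 (III:13462357-13462584), annotated as subunit 6 of complex III, had 7.07, 5.89 and 8.86 CPM in suc-ste, against 4.21, 3.43 and 2.13 CPM in control. The groups were apart, but at low counts: the log2 fold change was 1.17 (SE 0.29, adjusted p = 0.0179, edgeR), and the call was lost without suc-ste replicate 1 (adjusted p = 0.055) or replicate 3 (adjusted p = 0.051).

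Among the abundant members, asg-2 (X:6841258-6842121), the g subunit of ATP synthase, had 197, 189 and 209 CPM in suc-ste, against 103, 115 and 83 CPM in control. The lowest suc-ste library was far above the highest control library, with a log2 fold change of 0.99 (SE 0.13, adjusted p = 0.000725, edgeR). vha-5 had 466, 440 and 380 CPM in suc-ste, against 225, 244 and 190 CPM in control, a log2 fold change of 0.98 (SE 0.12, adjusted p = 0.000509, edgeR). cox-5A had 546, 573 and 564 CPM in suc-ste, a log2 fold change of 0.88 against control (SE 0.08, adjusted p = 8.35e-05, edgeR). No group overlapped its control group for either gene. cox-6A, also of complex IV, and gas-1 followed with log2 fold changes of 0.87 and 0.84. ndua-2 passed the test in suc-ste with a log2 fold change of 0.60 (adjusted p = 0.0476, edgeR) but in none of the 6 fits that left out a library, while vha-1 (0.27, adjusted p = 0.0901), cox-6B (0.32, adjusted p = 0.0599) and lhpp-1 (−0.41, adjusted p = 0.143) did not. The labels give no shared batch, and in suc against control a block on the replicate number lowered the called members from 42 to 23. In suc-ste against control, the deviations of same-numbered libraries had correlations of 0.135, 0.213 and 0.382. With this block, 51 members were higher and 2 lower there. vha-1 (adjusted p = 0.0401) and cox-6B (adjusted p = 0.028) were then called, and the lower members were ucr-2.3 (log2 fold change −0.39, adjusted p = 0.0102) and vha-18 (−0.32, adjusted p = 0.0457), an H subunit of the V-ATPase.

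Set against stearic acid alone, the sucrose-fed worms of suc-ste again had higher levels. In suc-ste against ste 39 of 67 members were higher and none lower, while 16.0% of all tested genes were higher and 18.1% lower. Their median log2 fold change was 0.35. The rise took in 15 of 23 members of complex I, 12 of 17 of the V-ATPase, 4 of 6 of complex IV, 4 of 7 of complex III and 4 of 11 of complex V. T27E9.2, with 7.07, 5.89 and 8.86 CPM in suc-ste, against 3.25, 2.13 and 4.4 CPM in ste, was the only member past 2-fold (log2 fold change 1.17, SE 0.25, adjusted p = 0.00375, edgeR), where 9.95% of all genes were. ndua-13 (I:10685825-10687058), an accessory subunit of complex I, had 217, 217 and 216 CPM in suc-ste, against 138, 113 and 125 CPM in ste. The suc-ste values hardly varied and lay above all of ste, with a log2 fold change of 0.80 (SE 0.09, adjusted p = 2.84e-05, edgeR). The complex I subunits nuo-6 and ndub-11 rose by 0.68 and 0.65, vha-5 by 0.72 and vha-1 by 0.40 on the log2 scale. Here 8 of 10 hypodermis and 6 of 13 moult markers were higher and none lower, while 3 of 10 neuron markers were lower and none higher. The summed hypodermis level was 1979 to 2368 CPM in suc-ste, against 1252 to 1322 CPM in ste. The part of these markers in the members' values was not tested.

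The comparisons suc against control and suc-ste against ste share no library. Of the 66 members tested in both, 28 were higher in both, which is 68.3% of the 41 members higher in the first and 71.8% of the 39 higher in the second. Among all tested members, 62.1% were higher in the first and 58.2% in the second. The overlap was thus not far from the members' own shares. Over all genes, 654 were higher in both, which is 53.6% and 32.3% of the genes higher in each. Of all tested genes, 9.63% and 16.0% were higher in the 2 comparisons. Whether a member differed between these comparisons is given below by the interaction test.

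The direct comparison of the single nutrients placed sucrose above stearic acid. In suc against ste 34 of 66 members were higher and none lower, while 11.0% of all tested genes were higher and 13.3% lower. The median log2 fold change of the members was 0.29. The V-ATPase had the largest share with 13 of 17 members higher in suc (median 0.35), complex I had 13 of 23 (0.33), complex IV 3 of 6, complex III 2 of 7 and complex V 3 of 10 (0.22). vha-12 (X:4191094-4193136), the B subunit of the V-ATPase catalytic head, had 653, 574 and 611 CPM in suc, against 394, 450 and 421 CPM in ste. The groups were well apart, with a log2 fold change of 0.54 (SE 0.09, adjusted p = 0.00154, edgeR). nuo-6 of complex I had 152 CPM in each of the 3 suc libraries, against 111, 89.8 and 102 CPM in ste, a log2 fold change of 0.59 (SE 0.09, adjusted p = 0.0011, edgeR). The largest change, 0.90 for R07E4.3, annotated as subunit 8 of complex III, rested on 7.83, 10.4 and 8.22 CPM in suc, against 7.05, 4.07 and 3.06 CPM in ste (SE 0.27, adjusted p = 0.0368, edgeR), and the call was lost without suc replicate 2, ste replicate 2 or ste replicate 3 (adjusted p of 0.111, 0.139 and 0.124 for R07E4.3). The count of 34 was 22 without suc replicate 2 and also 22 without ste replicate 3. Among the markers, 8 of 10 for hypodermis and 6 of 13 for moult were higher in suc and none lower. Of 10 neuron markers 5 were lower and none higher. The summed hypodermis level was 2182 to 2296 CPM in suc, against 1252 to 1322 CPM in ste. The part of these markers in the members' values was not tested.

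Adding stearic acid to sucrose moved no member past the test. In suc-ste against suc none of 67 members was called by edgeR's quasi-likelihood test, while 0.445% of all genes were. At an unadjusted p under 0.05 there were 11 members (16.4%, against 12.9% of all genes). DESeq2 called 2 members (ndua-13 and asg-2) and 275 of 15594 genes, and edgeR called 2 without suc replicate 3. The median log2 fold change was 0.04, with a range of −0.35 to 0.73.

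Whether the sucrose response depended on stearic acid was tested as an interaction over 12 libraries: the change of suc-ste against ste minus the change of suc against control. Of 67 members 9 had a negative and 1 a positive interaction, while 8.59% of all tested genes had a negative and 7.05% a positive one. The share with a negative interaction, 13.4%, was not far from that of all genes, and at an unadjusted p under 0.05 the members (32.8%) matched all genes (32.2%). The median over the members was −0.00. The 9 were 5 of 11 members of complex V, 2 of 6 of complex IV and 2 of 7 of complex III. No member of complex I or of the V-ATPase was called.

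asb-2 shows the form of this. It had 606, 571 and 645 CPM in suc, 508, 536 and 556 CPM in ste and 568, 605 and 522 CPM in suc-ste, against 399, 372 and 320 CPM in control. All treated libraries were above control, and suc-ste overlapped suc. Its interaction was −0.67 on the log2 scale (adjusted p = 0.00482, edgeR). ucr-2.1 had 370, 390 and 431 CPM in suc, 371, 407 and 410 CPM in ste and 384, 410 and 368 CPM in suc-ste, against 275, 259 and 219 CPM in control. The 3 treated groups overlapped each other and none overlapped control, with an interaction of −0.70 (adjusted p = 0.00421, edgeR). atp-2, the most counted member, had 3104, 2947 and 3093 CPM in suc, 2456, 2819 and 2594 CPM in ste and 2882, 2938 and 2703 CPM in suc-ste, against 2139, 2015 and 1945 CPM in control. Every treated library was above control, and the interaction was −0.48 (adjusted p = 0.00658, edgeR). cox-4 (−0.47, adjusted p = 0.00755) and F58F12.1 (−0.43, adjusted p = 0.0146) followed in the same edgeR fit, and the exception with a positive value was ucr-2.3 (0.85). Its sucrose change differed in sign: −0.55 without stearic acid (adjusted p = 0.0623, edgeR, not called) and 0.32 with it (adjusted p = 0.029, edgeR).

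**Figure D3:**
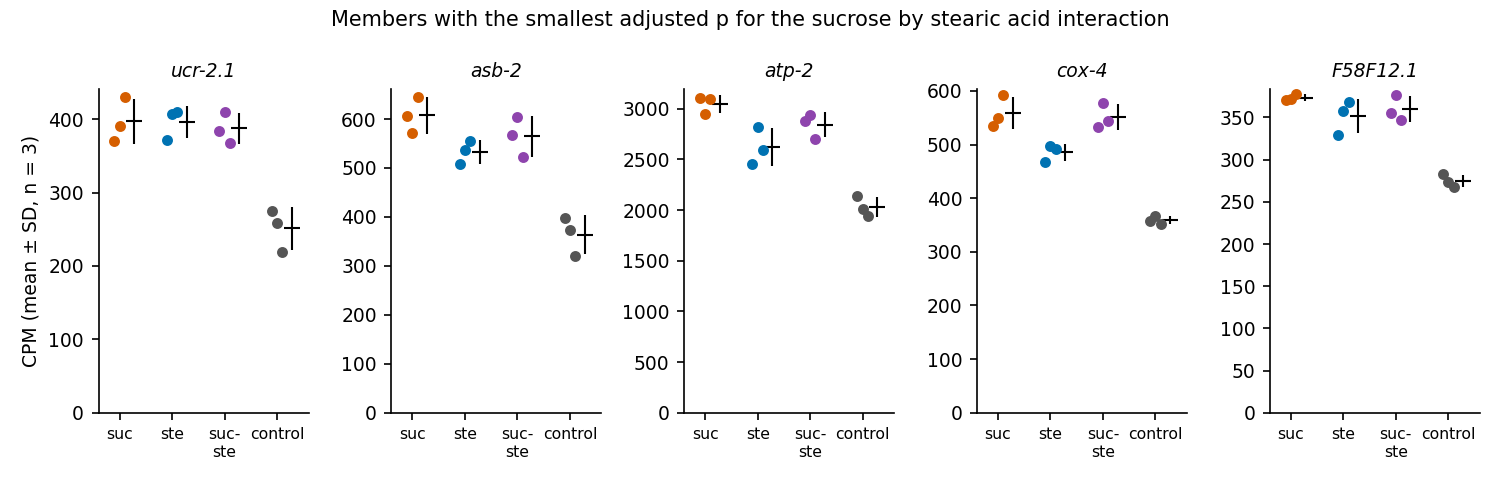
CPM of the 5 members with the smallest adjusted p for the interaction in suc, ste, suc-ste and control, with points for libraries and the mean ± SD. For each gene all suc, ste and suc-ste libraries lie above all control libraries, for example 508 to 645 CPM against 320 to 399 CPM for asb-2.

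Resveratrol given with both nutrients moved no member past the test. In suc-ste-res against suc-ste none of 67 members was called by edgeR's quasi-likelihood test, while 0.0159% of all genes were (2 of 12591). At an unadjusted p under 0.05 there was 1 member (1.49%, against 4.39% of all genes), and DESeq2 called no member and 17 of 15554 genes. The median log2 fold change was −0.05, with a range of −0.29 (T27E9.2) to 0.12 (T26E3.7), and a median SE of 0.08. Of the members 17 of 67 lay above 0, and of all genes 6286 of 12591. Taking 2 SE on each side, the intervals of the members other than these 2 scarce transcripts ran from −0.47 at the lowest to 0.31 at the highest. cox-5A had 567, 503 and 581 CPM in suc-ste-res, against 546, 573 and 564 CPM in suc-ste, and vha-5 had 387, 369 and 469 CPM in suc-ste-res, against 466, 440 and 380 CPM in suc-ste. The groups overlapped for both genes.

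Several subunits of these enzymes are encoded by more than one gene in the worm, and the copies differed in their response. KEGG gives 8 subunits with several members, 19 members in all. For 6 of these subunits one or more genes lie on the X chromosome and one on an autosome: core subunit 2 of complex III, the b and g subunits of ATP synthase, the Fe-S protein 2 of complex I (gas-1 and nduf-2.2), and the B and H subunits of the V-ATPase. X-linked genes are known to be little expressed in the germline of the worm, asb-1 is known as the germline form of the b subunit, and spe-5, a B subunit, is known for its role in sperm formation. In suc against control all 7 X-linked genes of these subunits rose (median log2 fold change 0.69, range 0.36 to 0.80), while none of the 6 autosomal genes was called in either direction (median −0.24, range −0.55 to 0.05). The 7 include ucr-2.2, whose value is uncertain in every comparison because its span overlaps col-41. The grouping was chosen after these values were seen, so it has no test. Calls also differed in a pair without X linkage, the complex I genes ndab-1 and ndab-2, both on chromosome III. In suc against control ndab-1 rose (0.49, adjusted p = 0.0133, edgeR) and ndab-2 was not called (0.14, adjusted p = 0.433, edgeR).

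The b subunit shows the contrast. X-linked asb-2 had 606, 571 and 645 CPM in suc, against 399, 372 and 320 CPM in control, whereas asb-1 (III:4594543-4595821) had 122, 110 and 95.7 CPM in suc, against 99.5, 113 and 184 CPM in control. asb-1 overlapped between the groups, with the highest value in control replicate 3, and its log2 fold change was −0.27. For the complex I subunit, gas-1 rose by 0.80 on the log2 scale and nduf-2.2 (III:6465222-6467206) had 110, 110 and 103 CPM in suc, against 110, 109 and 155 CPM in control, a log2 fold change of −0.20. For the g subunit, asg-2 rose by 0.69, while asg-1 had 75.4, 84.6 and 75.3 CPM in suc, against 75.2, 75.1 and 78.6 CPM in control. Core subunit 2 went furthest apart in ste, where ucr-2.1 rose by 0.65 and ucr-2.3 (III:879860-881458) had 59.6, 58.4 and 53 CPM, against 83.6, 79.1 and 123 CPM in control, a log2 fold change of −0.75 (SE 0.17, adjusted p = 0.00882, edgeR).

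In suc-ste against control 6 of 7 X-linked and none of 6 autosomal genes were higher (7 of 7 and none with the replicate block, where ucr-2.3 and vha-18 were lower), and in ste against control 4 of 7 X-linked genes were higher while 1 autosomal gene was lower and none higher; these comparisons share the control libraries. In suc-ste against ste, which uses none of them, the copies were less far apart: 5 of 7 X-linked genes (median 0.36) and 2 of 6 autosomal genes (asg-1 and ucr-2.3, median of the 6 at 0.22) were higher, and all 6 autosomal genes lay above 0 (0.06 to 0.51). Of all 8 members on X, 7 were higher in suc against control, as were 34 of 58 tested members on autosomes, and over all placed genes 11.3% on X and 9.32% on autosomes were higher.

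The germline level moved beside this pattern. The summed germline markers stood at 3065, 2683 and 2221 CPM in suc, 2536, 2701 and 2299 CPM in ste and 2276, 2232 and 2644 CPM in suc-ste, against 2936, 3003 and 4876 CPM in control, and against control none of 12 was called by edgeR in suc (median log2 fold change −0.45), 5 were lower in ste (−0.54) and 3 lower in suc-ste (−0.47). Of the sperm genes 11 of 36 were lower in suc, 14 of 37 in ste and 5 of 36 in suc-ste, where 1 was higher. Their part in the paralog pattern was not tested. Without control replicate 3, the X-linked genes had a median of 0.57 in suc against control with 6 of 7 higher, where all libraries gave 0.69. The autosomal genes had a median of −0.06 with none called, where all libraries gave −0.24.

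**Figure D4:**
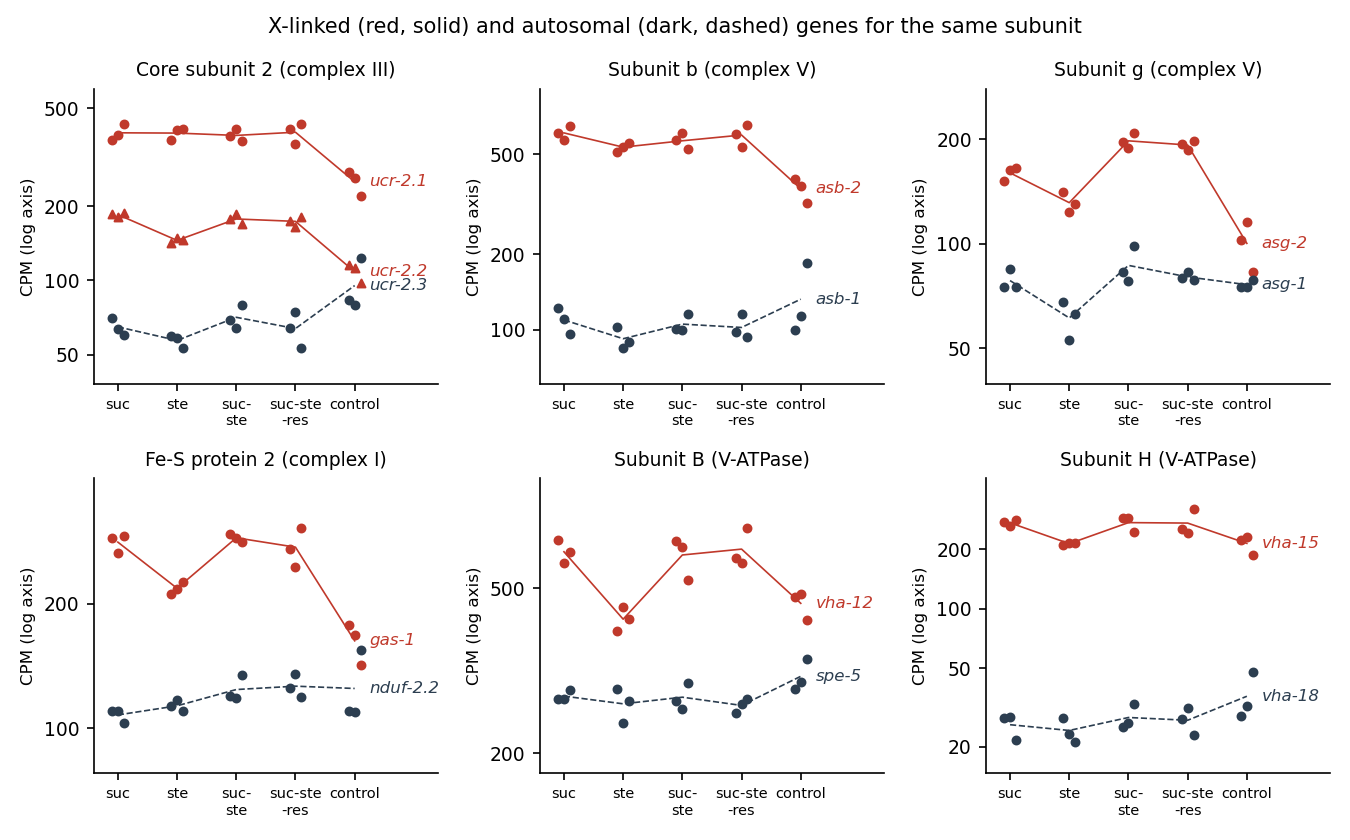
CPM (log axis) of the X-linked genes (red) and autosomal genes (dark) that share a subunit, for 6 subunits, in suc, ste, suc-ste, suc-ste-res and control, with a point for every library and lines that join the group means. The X-linked genes lie higher in suc than in control, for example asb-2 at 571 to 645 CPM against 320 to 399 CPM, while the autosomal asb-1 overlaps at 95.7 to 122 CPM against 99.5 to 184 CPM.

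The V-ATPase a subunit has 4 genes, none on X, that are known from different tissues. vha-5, known from the excretory canal and hypodermis, was the only one to rise in suc against control (log2 fold change 0.71). vha-6 of the intestine had a log2 fold change of −0.06, vha-7 one of −0.06, and unc-32, the form of the nervous system, one of 0.04. Among 10 hypodermis markers, 3 were higher and 2 lower in the same comparison, and their part in the vha-5 values was not tested. By position, only 3 members lay on chromosome V (4.48%, against 25.3% of all placed genes) and 19 on chromosome III (28.4%, against 13.0%).

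Genes that feed or accompany the chain are given for context. The 4 complex II genes (mev-1, sdha-1, sdhb-1 and sdhd-1), which link the chain to the citric acid cycle, rose as 4 of 4 in suc (median 0.64), 3 of 4 in ste (0.48) and 4 of 4 in suc-ste (0.60), each against control. In all 4 the interaction was negative (median −0.54). Of 19 listed genes of the citric acid cycle and its entry and exit steps, 13 were higher in suc, 8 higher and 2 lower in ste, and 12 higher in suc-ste. The largest rises in suc were those of pck-2 (1.51) and pck-1, which act in gluconeogenesis, and of mdh-2 (1.47) and cts-1 (1.43), malate dehydrogenase and citrate synthase. Of 47 mitochondrial ribosomal protein genes, 2 were higher in suc against control (4.26%, against 9.63% of all genes). None was higher in ste (11.6% of all genes) and 6 were in suc-ste (12.8%, against 11.0%). Their median log2 fold changes were 0.16 in suc, −0.03 in ste and 0.19 in suc-ste, with 41, 18 and 43 of 47 above 0.

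Among 6 genes for cytochrome c and the ADP/ATP carriers, which hand electrons to complex IV and export ATP, ant-1.1 rose in suc (0.52) while ant-1.3 (−0.69) and ant-1.4 (−1.08) fell. Of 7 genes of the mitochondrial unfolded protein response, the chaperone gene hsp-60 was the only one to rise in suc (0.54), and in ste hsp-6 (0.51) and the transcription factor gene atfs-1 (0.38) rose. Of 7 antioxidant and alternative-route genes, gpdh-2 (1.18) and coq-1 (1.02), a gene of ubiquinone synthesis, rose in suc, and sqrd-1 (1.75), a sulfide oxidation gene, and coq-1 (0.72) rose in ste.

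**Figure D5:**
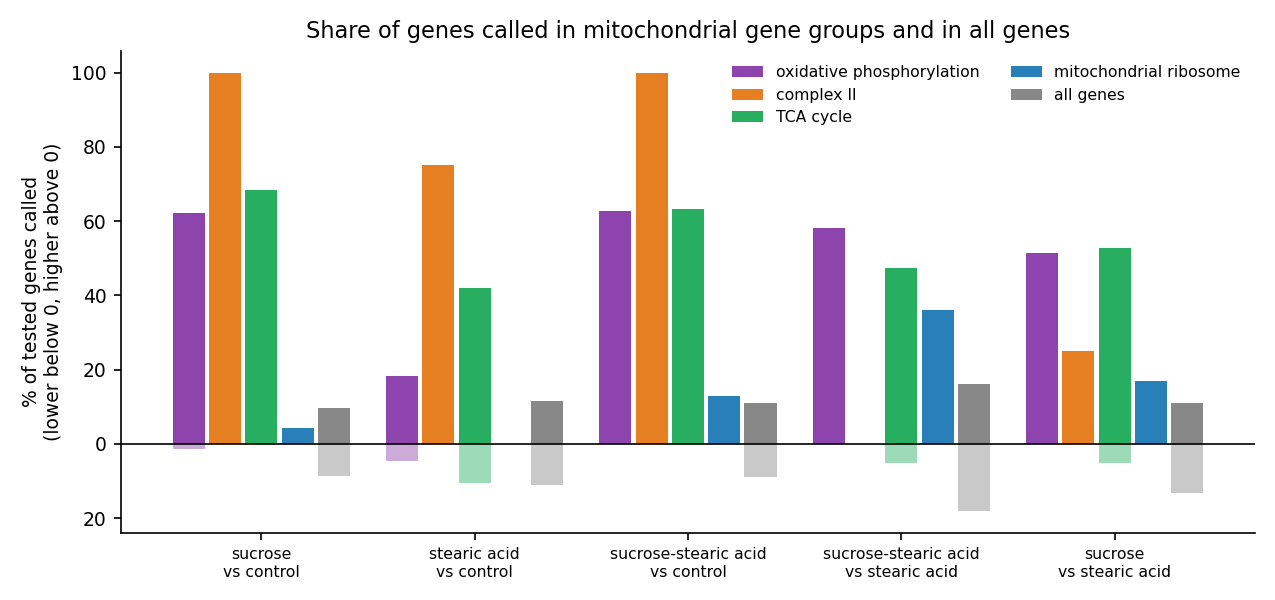
Percent of tested genes called higher or lower (y axis) among the oxidative phosphorylation members, complex II, the citric acid cycle, mitochondrial ribosomal proteins and all genes, for each of 5 comparisons. The members stand at 41 of 66 higher in suc against control, where 9.63% of all genes were higher, and at 12 of 66 in ste against control, where 11.6% were.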

How the data were processed

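Raw counts per gene and FPKM values were deposited by the authors for the 15 libraries, and per the labels and methods reads were mapped with TopHat to the WBcel235 genome. The counting tool is not given in the sources used here, nor whether strand or reads with several matches were counted. The deposited fold changes and FDR values of the authors' own comparisons, and the other files, which hold those, were not used. Every column of per-sample values was used (0 left out). Counts were fitted pairwise over 6 libraries (the interaction over 12) with edgeR 4.0.16 in R 4.3.3, using filterByExpr, TMM scaling, the quasi-likelihood test and Benjamini-Hochberg adjustment over all genes tested. FPKM served only for levels between genes and for an alternative with limma 3.58.1 on log2(FPKM + 1) or log2(FPKM + 0.1). DESeq2 1.42.0 was the other alternative, beside other size factors, no filter, a replicate block, all 15 libraries in a single fit, an adjusted p of 0.01, and leaving out each library. Only between suc-ste and control did all 3 same-numbered pairs have a correlation of deviations over 0.1 (0.135, 0.213 and 0.382). Other same-numbered pairs ranged down to −0.412, and the labels give no shared batch, so pairing is not established. The scripts were tested on simulated counts.

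The members and gene lists were chosen with earlier results of these data known. Members were grouped by the KEGG description. Names came from the annotation in the table and from RefSeq locus tags (60 of 67 members had both, and both gave the same gene). Named were the members called at 2-fold, otherwise the 5 largest changes per direction with at least 5 CPM in a group, the member with the highest FPKM and the called member with the largest change of each complex. Further members were named after their values were seen: paralogs, the other called members in ste, and those past the interaction test. Depth was 19433436 to 21400063 counts a library, with 3 libraries a group.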

Additional observations from a re-analysis of the deposited data

Results flagged for a closer look

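The sucrose response of 10 members differed between worms with and without stearic acid by a test of the difference itself (edgeR, adjusted p of at most 0.05). That is 14.9% of the 67 members, near the 15.6% of all genes called in the same test, so the count says nothing particular to these genes. The values are the log2 change of suc-ste against ste minus that of suc against control. Of the core subunit 2 genes of complex III, ucr-2.1 had −0.70, ucr-2.2 had −0.49 and ucr-2.3 had 0.85. In complex IV, cox-4 had −0.47 and cox-5A had −0.37. In complex V, asb-2 had −0.67, Y82E9BR.3 had −0.53, atp-2 had −0.48, F58F12.1 had −0.43 and R04F11.2 had −0.41.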

How the results depend on the processing

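The median log2 fold change of the members kept its sign in every comparison with a control or ste denominator, at 0.39 to 0.45 in suc against control, 0.01 to 0.14 in ste against control, 0.43 to 0.55 in suc-ste against control and 0.33 to 0.36 in suc-ste against ste. Counts of called members moved more. In suc against control the 42 called became 23 with a replicate block, 22 at an adjusted p of 0.01 and 24 to 40 when single libraries were left out. In ste against control the 15 became 24 with all 15 libraries in the fit, 3 at an adjusted p of 0.01 and 2 to 15 without single libraries. In suc against ste the 34 became 17 at an adjusted p of 0.01 and 22 to 36 without single libraries, and the 10 interactions became 4 at an adjusted p of 0.01 and 7 to 13. In suc-ste against suc, DESeq2 called 2, limma on log2(FPKM + 1) and on log2(FPKM + 0.1) called 1 each, and leaving out single libraries gave 0 to 2. The other counts without single libraries were 30 to 43 in suc-ste against control and 31 to 39 in suc-ste against ste, and the cause was not tested. Of the same-numbered pairs between groups, 7 of 30 had a correlation of deviations over 0.1 (range −0.412 to 0.382), and suc-ste with control was the only pair of groups where all 3 did. There the replicate block gave 53 called. With the block, ste against control had 7 higher and 5 lower members. The labels give no shared batch for any comparison. Of 758 alternative values of called named members, 678 kept the call, 80 lost it and 0 changed sign. cox-15, not called, changed sign: in suc against control to −0.30 with limma (both pseudocounts) and −0.027 to 0.12 without single libraries, and in suc-ste against control to −0.016 with other size factors, −0.011 with DESeq2, −0.0033 without a filter, −0.12 with limma, −0.012 with all 15 libraries and −0.0495 to 0.11 without single libraries.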
